A study of Mus musculus with 18 samples.

Results

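The 7 genes described here encode the MHC class II antigen presentation machinery: H2-Aa, H2-Ab1 and H2-Eb1, which encode chains of the surface class II molecules, H2-DMa and H2-DMb1, which encode the peptide editor DM, Cd74, which encodes the invariant chain, and Ciita, which encodes the class II transactivator. They were taken by name from the 46078 genes of the deposited count tables, and all 7 passed the filter on low counts in each model. Regulatory T cells (Tregs, the Foxp3-expressing T cells that restrain immune responses) had been sorted by flow cytometry and their RNA measured by bulk RNA sequencing. All mice were 10-week-old males of the Foxp3(DTR/GFP) strain, in which Foxp3-expressing cells carry a diphtheria toxin receptor and a green fluorescent protein. The groups were Tregs from bone with a cranial defect (3 libraries), from quadriceps muscle after volumetric loss (3), from skin with full-thickness punch wounds (3) and from heart after ligation of the left coronary artery (3), each taken 7 days after injury, and Tregs from the spleen of uninjured mice (6). Each injured-tissue library held cells pooled from 3 mice, and pooling is not stated for spleen. Uninjured bone, muscle, skin and heart were not measured here, so an effect of injury and a difference between tissues cannot be told apart.

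Class II molecules are heterodimers that present peptides to CD4 T cells. They assemble in the endoplasmic reticulum with the invariant chain, which blocks the groove until proteases trim it, and DM then exchanges the remaining fragment for other peptides. B cells, dendritic cells and macrophages carry the pathway constitutively under control of the transactivator encoded by Ciita, which is recruited to class II promoters by factors bound to the X and Y boxes. Mouse T cells are generally regarded as poor makers of class II, so that class II RNA in a sorted T cell library can come from the T cells or from a small number of presenting cells that passed the sort. In bulk RNA, fewer cells of a type and less RNA per cell cannot be told apart.

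Bone libraries held 11588253 to 22635760 counts, muscle libraries 11582403 to 13358526, skin libraries 8375212 to 11907745, heart libraries 11139361 to 12974890 and spleen libraries 5970346 to 15756884. Foxp3, which defines the Treg label, was present in every library and called higher in all 4 injured tissues. It averaged 751 CPM in bone, 710 CPM in muscle, 789 CPM in skin, 693 CPM in heart and 404 CPM in spleen libraries (CPM is the read count relative to library size, here with TMM scaling over the 18 libraries). Library names followed one of 2 styles, Endo or Tregs. Skin carried the Endo style only, bone and muscle the Tregs style only, and heart (replicate 1 Endo, replicates 2 and 3 Tregs) and spleen (replicates 1 to 3 Endo, 4 to 6 Tregs) carried both. Fold changes against spleen were adjusted for style, so that in bone and muscle they compare with spleen replicates 4 to 6, and in skin with spleen replicates 1 to 3. Heart replicate 2 stood apart from the other libraries in class II RNA. It also held the highest summed level of neutrophil markers of the 18 libraries, 27.7 CPM, beside 1.79 and 10.5 CPM in heart replicates 1 and 3 and 2.28 to 25.6 CPM in spleen, and their part in the heart results was not tested. The heart values of the class II genes are therefore also given without this library. The other heart calls named here (Ms4a1, Zbtb46, Xcr1, H2-Ob, Lgmn, Ifi30, Cd83, March8, Ifngr1, Prdm1, Irf4 and Jak2) held without it. Spleen replicates 1 and 2, which had the highest shares of counts on genes of ribosomal and 7SK RNA (11.3% and 10.9%), were also left out together. For skin this leaves spleen replicate 3 as the only spleen library of the same style. Bone had a share of 3.30% to 3.77%, muscle 3.44% to 4.32%, skin 4.63% to 6.57% and heart 4.23% to 7.37%, against 7.11% to 11.3% for spleen, so it moves with every comparison with spleen, and its part in the results was not tested beyond these alternatives.

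The surface chain genes varied widely between libraries of a group, bone excepted, and passed the test against spleen in no tissue. H2-Aa, the alpha chain of the I-A molecule, stood at 56.3, 67.2 and 64.9 CPM in bone, 148, 27.8 and 24.4 CPM in muscle, and 48.5, 149 and 123 CPM in skin. In heart it stood at 150.5, 2.28 and 62.9 CPM, and the 6 spleen libraries had a lowest value of 27.9, a median of 50.4 and a highest value of 104 CPM. Muscle replicate 1, skin replicates 2 and 3 and heart replicate 1 lay above all spleen libraries, while the other tissue libraries lay within or below the spleen range. Between the highest and the lowest library, bone spanned 1.2-fold, muscle 6.08-fold, skin 3.08-fold, heart 66.0-fold and spleen 3.71-fold.

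H2-Ab1, the beta chain that pairs with H2-Aa, had 26.8, 34.1 and 19.9 CPM in bone, 69.5, 20.1 and 14.8 CPM in muscle and 25.6, 70.6 and 67.9 CPM in skin. Heart libraries had 66.4, 5.89 and 34.8 CPM of H2-Ab1, and spleen libraries ran from 9.35 through a median of 23.3 to 54.9 CPM. H2-Eb1, the beta chain of the I-E molecule, gave 21.8, 31.9 and 30 CPM in bone, 72.1, 22.6 and 14.2 CPM in muscle and 24.1, 72.3 and 68.3 CPM in skin. Its heart values were 83.9, 1.89 and 34.5 CPM, against a spleen range of 11.2 to 42.8 CPM with a median of 24.2 CPM. The library that was highest in H2-Aa was also highest in H2-Ab1 and in H2-Eb1 in 5 of 5 groups.

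Cd74 (chr18:60803848-60812652, GRCm38, plus strand), the invariant chain and chaperone of class II, lies outside the MHC, as does Ciita (chr16:10480059-10528418, plus strand). Cd74 was the most abundant member per kilobase of exon: 142 ± 9.29 CPM per kilobase in bone, 168 ± 51.3 in muscle, 247 ± 27.9 in skin, 131 ± 95.1 in heart (SD, n = 3 each) and 116 ± 48.1 in spleen (SD, n = 6). By library Cd74 had 229, 230 and 257 CPM in bone, 382, 236 and 230 CPM in muscle and 369, 463 and 412 CPM in skin. In heart it had 395, 82.1 and 184 CPM, and in spleen the lowest library had 126, the median was 161 and the highest had 303 CPM. All 3 skin libraries lay above all 6 spleen libraries, whereas bone, muscle and heart overlapped spleen. The next most abundant members per kilobase were H2-Aa and H2-Eb1, at 28.2 ± 13.8 and 28.2 ± 13.8 CPM per kilobase in skin and 15.4 ± 8.76 and 13.6 ± 6.95 in spleen, which did not differ beyond their spread, followed by H2-Ab1. The DM genes and Ciita had group means of at most 5.42 CPM per kilobase, which was H2-DMa in spleen.

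**Figure D1:**
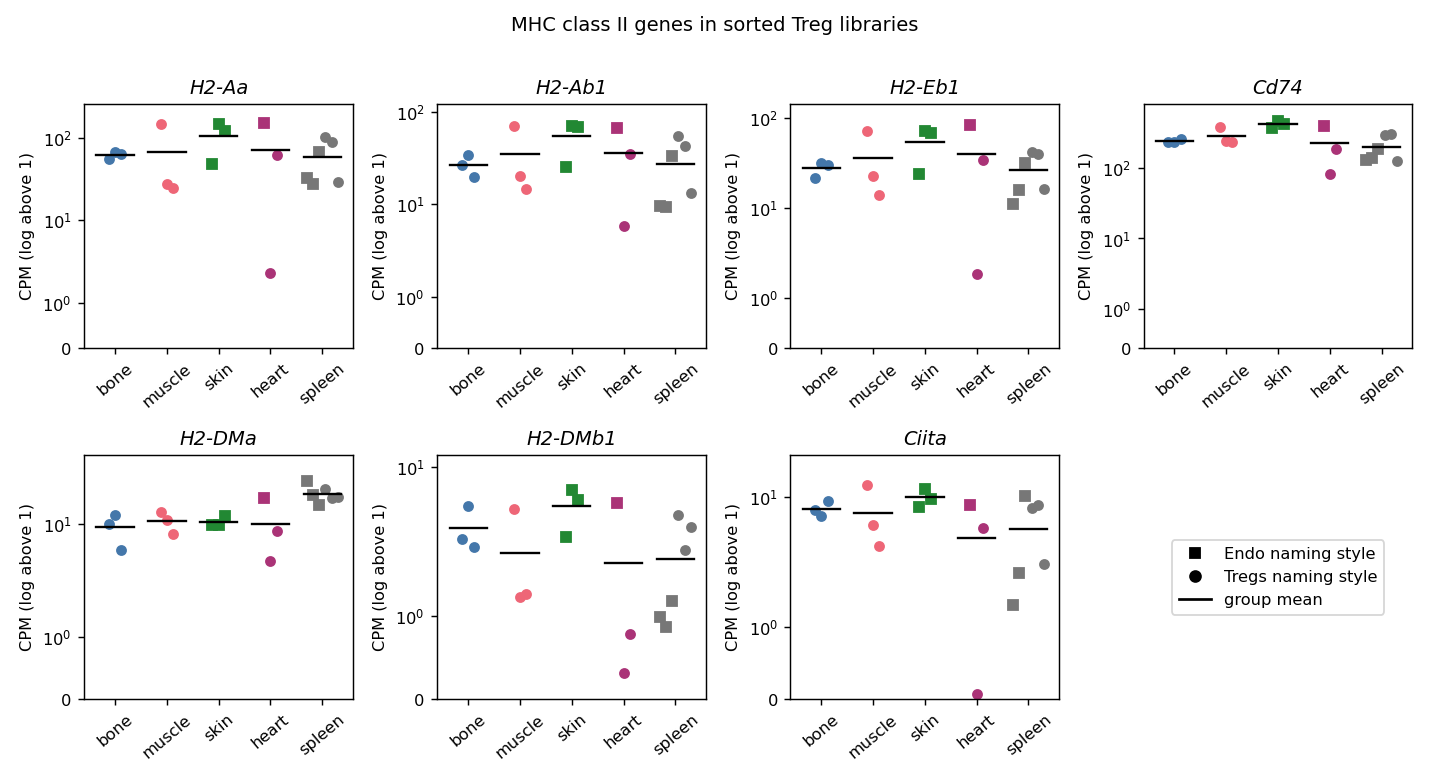
Level of each of the 7 class II genes in every Treg library, in TMM-scaled CPM on an axis that is logarithmic above 1 and linear below, with injured tissues at left and spleen at right. Squares and circles mark the naming style and black lines the group means. Cd74 in skin (369 to 463 CPM) lies above spleen (126 to 303 CPM), H2-DMa lies mostly below it, and heart replicate 2 is the low heart point in all 7 panels.

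H2-DMa, the alpha chain of the peptide editor, was lower in Tregs of all 4 injured tissues. It had 10.05, 12.1 and 5.94 CPM in bone, 12.8, 11.01 and 8.19 CPM in muscle, and 9.87, 9.81 and 11.9 CPM in skin. Heart libraries had 17.02, 4.71 and 8.65 CPM, and spleen libraries had 14.8 CPM at the lowest, 17.9 at the median and 24.0 at the highest. Bone, muscle and skin did not overlap spleen, and heart overlapped it through replicate 1. The log2 fold change over spleen was -0.98 ± 0.28 in bone (SE, adjusted p = 0.018), -0.81 ± 0.28 in muscle (0.036), -0.87 ± 0.29 in skin (0.025) and -0.92 ± 0.30 in heart (0.048), all by the quasi-likelihood test of edgeR, with p-values adjusted by Benjamini and Hochberg's method over all genes tested. These calls were close to the threshold: of the alternative analyses, 17 of 20 kept the call in bone, 13 of 21 in muscle, 13 of 21 in skin and 10 of 22 in heart, and the direction held in all of them. Among the alternatives that ended it, the skin value was -0.48 without spleen replicates 1 and 2 (adjusted p = 0.51) and the heart value -0.58 without heart replicate 2 (adjusted p = 0.22), both by the same edgeR test. Without spleen replicates 1 and 2, skin is in effect compared with spleen replicate 3 alone. The 4 comparisons share spleen libraries and are not independent of each other.

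Of the 3448 exon bases annotated for H2-DMa, 360 also lie in exons of Brd2, a bromodomain gene on the opposite strand. Brd2 itself averaged 268 CPM in bone, 240 CPM in muscle, 205 CPM in skin, 224 CPM in heart and 242 CPM in spleen, and passed the test against spleen in no tissue (adjusted p from 0.19 to 0.94, edgeR). The strand setting of the read counting is not given in the sources used here, so the H2-DMa level may contain reads of Brd2, and that part was not tested. Ciita shares 329 of its 9535 exon bases with Dexi, also on the opposite strand.

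H2-DMb1, which encodes the DM beta chain, was higher in skin. Its libraries had 3.41, 6.99 and 5.99 CPM in skin, against a spleen range of 0.866 to 4.75 CPM with a median of 2.02 CPM. The 3 skin libraries lay above spleen replicates 1 to 3 (0.992, 0.866 and 1.26 CPM), and overlapped replicates 4 to 6 (4.75, 2.77 and 3.93 CPM). The adjusted log2 fold change was 2.35 ± 0.62 (SE, adjusted p = 0.0061, edgeR), which fell to 1.10 without the naming style term (adjusted p = 0.14). H2-DMb1 had 3.28, 5.46 and 2.89 CPM in bone, 5.21, 1.36 and 1.41 CPM in muscle and 5.74, 0.314 and 0.786 CPM in heart, with no call in any of the 3. The gene has a close tandem copy, H2-DMb2, and reads that match both may have been dropped or divided in the authors' counting, so both levels are uncertain.

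Ciita passed the test in none of the 4 tissues. It had 7.94, 7.13 and 9.22 CPM in bone, 12.2, 6.11 and 4.22 CPM in muscle, and 8.40, 11.5 and 9.69 CPM in skin. Heart libraries had 8.65, 0.0786 and 5.74 CPM, the second of these being 1 count, and spleen ran from 1.49 through a median of 5.63 to 10.1 CPM. Skin sat at the upper end of the spleen range, with a log2 fold change of 1.00 ± 0.54 (SE, adjusted p = 0.18, edgeR). Without spleen replicate 3 the skin value was 2.25 (adjusted p = 0.0035, edgeR), since that library, at 10.1 CPM, was the highest of the spleen libraries in Ciita.

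Set against spleen, 0 of 7 members were higher and 1 of 7 was lower in bone, where 8.48% of all 15617 genes tested were higher and 6.32% lower. In muscle 0 of 7 were higher and 1 of 7 lower, against 14.2% and 11.3% of all genes. In skin 2 of 7 were higher and 1 of 7 lower, against 15% and 12.8% of all genes. In heart 0 of 7 were higher and 1 of 7 lower, against 11.8% and 8.46% of the 15025 genes tested. The lower member was H2-DMa each time, and the higher ones in skin were Cd74 and H2-DMb1. With 7 members, none of these shares is read as particular to them. H2-DMa was also the only member with an unadjusted p under 0.05 in bone, muscle and heart in edgeR's test, and DESeq2 and limma-voom called 0 members higher in these 3 tissues. The members' median log2 fold change over spleen was -0.27 for bone, -0.12 for muscle, 1.44 for skin and 0.15 for heart, beside 0.01, -0.01, -0.07 and -0.03 for all genes.

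Cd74 in skin gave the firmest difference from spleen, with a log2 fold change of 1.44 ± 0.28 (SE, adjusted p = 0.00094, edgeR). The call held in 19 of 21 alternatives, and was lost when all 18 libraries were fitted together (1.04, adjusted p = 0.15) and without spleen replicates 1 and 2 (1.18, adjusted p = 0.11). Without those 2 libraries, skin is in effect compared with spleen replicate 3 alone. The 3 surface chain genes had skin values of similar size but larger errors: 1.28 ± 0.76 for H2-Aa (adjusted p = 0.25), 1.61 ± 0.77 for H2-Ab1 (0.16) and 1.44 ± 0.67 for H2-Eb1 (0.15, all edgeR, SE). In skin H2-Aa passed in 1, H2-Ab1 in 2 and H2-Eb1 in 2 of 21 alternatives, namely with no filter on low counts (all 3 genes) and against same-style spleen (H2-Ab1 and H2-Eb1). Heart values were 0.20 ± 1.11 for H2-Aa, 0.39 ± 0.93 for H2-Ab1 and 0.49 ± 1.01 for H2-Eb1. Without heart replicate 2 they were 0.96 ± 0.68, 1.07 ± 0.78 and 1.23 ± 0.58, with adjusted p of 0.43, 0.44 and 0.21 in edgeR's test. Cd74, Ciita and H2-DMb1 then had heart values of 0.65 ± 0.44, 0.35 ± 0.63 and 0.89 ± 0.91 (SE, adjusted p = 0.38, 0.76 and 0.57, edgeR). Without heart replicate 1 the surface chain genes were at -1.20 ± 1.28, -0.88 ± 1.02 and -0.87 ± 1.12, so the sign of the heart values rests on single libraries.

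**Figure D2:**
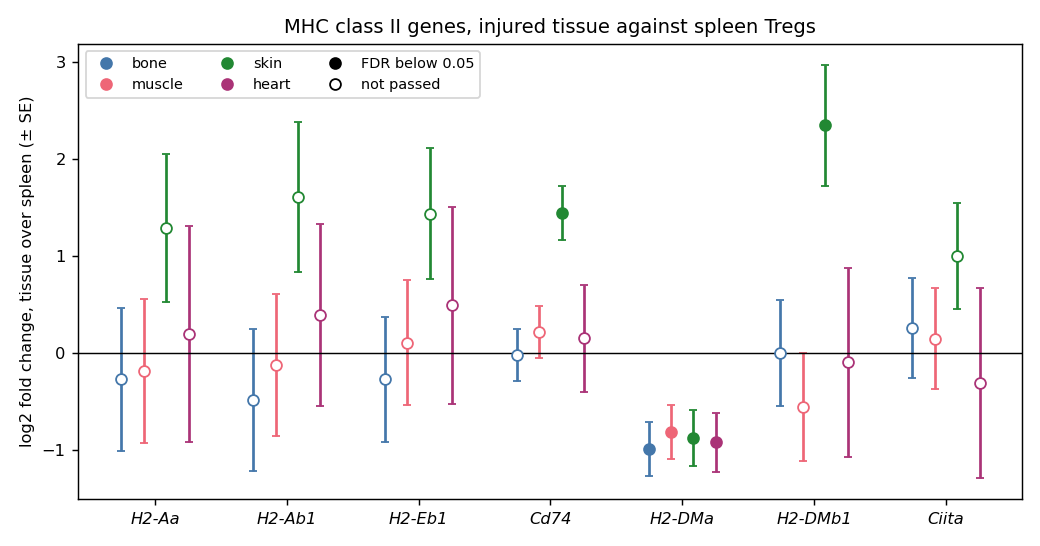
Log2 fold change of each class II gene in Tregs of 4 injured tissues over spleen Tregs, adjusted for naming style, with standard errors. Filled points passed an FDR of 0.05. H2-DMa lies between -0.98 and -0.81 in all 4 tissues, Cd74 (1.44) and H2-DMb1 (2.35) are filled in skin only, and this does not show that skin differs from the other tissues.

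Tested directly between injured tissues, no member passed in any of 6 comparisons, by edgeR, DESeq2 or limma-voom, and 0 members had an unadjusted p under 0.05 in edgeR. The share of all 15926 genes that passed was 3.1% for bone against muscle, 8.16% for skin against bone, 0.722% for skin against muscle, 6.68% for heart against bone, 0.452% for heart against muscle and 2.38% for heart against skin. The largest member difference was that of H2-DMb1 in heart against skin, -1.29 ± 0.84 on the log2 scale (SE, adjusted p = 0.55, edgeR). For Cd74 the differences were 0.72 ± 0.64 for skin against bone, 0.47 ± 0.64 for skin against muscle and -0.88 ± 0.53 for heart against skin. Without heart replicate 1, H2-DMb1 was called lower in heart than in bone (-2.80 ± 0.77, adjusted p = 0.028) and lower than in skin (-5.14 ± 1.02, adjusted p = 0.0067, edgeR, SE), and also lower than in spleen (-2.78 ± 0.82, adjusted p = 0.036). Heart replicates 2 and 3, then left, held only 4 and 10 counts of H2-DMb1 and carried the Tregs style. Skin shares no style with them, so the size of that skin difference depends on the style difference within spleen. Skin likewise shares no style with bone or muscle, and those comparisons depend on the style differences within spleen and heart. The higher skin level of Cd74 against spleen is thus not shown to be particular to skin.

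The proportion of Cd74 to H2-Aa differed between libraries. Cd74 exceeded H2-Aa 3.43- to 4.08-fold in bone, 2.57- to 9.41-fold in muscle, 3.10- to 7.61-fold in skin and 2.70- to 4.91-fold in spleen, on the CPM scale. In heart the ratios were 2.63, 36.03 and 2.93. Heart replicate 2 was the lowest of the 18 libraries in Cd74 (82.1 CPM), and H2-Aa was lower still relative to it, with 29 counts beside 75 of H2-Ab1 and 24 of H2-Eb1. The muscle replicates with low H2-Aa (2 and 3) likewise had the high ratios, 8.49 and 9.41. Correlated over the 18 libraries on the log2(CPM + 1) scale, with no account of group, H2-Aa gave a Pearson r of 0.98 with H2-Eb1, 0.91 with H2-Ab1, 0.90 with Ciita, 0.84 with Cd74 and 0.76 with H2-DMb1. With H2-DMa it gave 0.40, and H2-DMa gave 0.06 with Cd74. These values describe libraries that share tissues and depth and are not independent. They include heart replicate 2 and were not computed without it.

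The genes whose pattern over the 18 libraries was most like the mean of H2-Aa, H2-Ab1, H2-Eb1 and Cd74 were sought among 12546 genes, by Pearson r on the same scale. The 10 highest, from 0.84 to 0.78, were Klrd1, Clec10a, Fcer1g, Ctnnd2, Wdfy4, Flt3, Pirb, Fcgr2b, Rassf4 and Hist1h2bb. Among them are a lectin receptor of macrophages and dendritic cells (Clec10a), the common Fc receptor gamma chain (Fcer1g), a gene needed for cross-presentation by dendritic cells (Wdfy4), the receptor of a dendritic cell growth factor (Flt3) and an inhibitory Fc receptor of B and myeloid cells (Fcgr2b). Flt3 alone of the 10 was on the dendritic cell list used here, and 0 were on the B cell or macrophage lists. The others were on none of the gene lists, neither those just described nor Klrd1, which ranked first, Ctnnd2, Pirb, Rassf4 and Hist1h2bb. The cell source of the 10 was not tested. Clec10a had 0 CPM in heart replicate 2 and its highest value, 6.06 CPM, in spleen replicate 5, and Wdfy4 ran from 2.28 CPM in heart replicate 2 to 33.5 CPM in skin replicate 2. Ranked by Spearman's rho, 7 of the 10 stayed among the top 10. Heart replicate 2, also low in the class II genes, was the lowest or joint lowest library for all 10 except Pirb and Fcgr2b. The correlations were not computed without it. Foxp3 gave an r of 0.16, Ms4a1 -0.08 and Cd79a -0.08. Among other T cell and Treg genes Cd3e gave -0.68, Cd3g -0.44 and Cd4 -0.24, while Il2ra gave 0.11 and Ikzf2 0.36. The neutrophil genes S100a8 and S100a9 gave -0.65 and -0.62.

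Of the members, 5 lie on chromosome 17 of GRCm38 within the MHC. H2-DMa spans chr17:34119541-34139101, H2-DMb1 chr17:34153072-34160230, H2-Ab1 chr17:34257689-34269419 and H2-Eb1 chr17:34305867-34316674, all on the plus strand, and H2-Aa chr17:34282744-34287823 on the minus strand (GENCODE M21). Promoters of 4 members, from 250 bases before to 50 bases after the start, were found in the RefSeq table (GRCm38.p6). The 3 shown, of members that varied together, are printed 5′ to 3′ on the gene's own strand. Capitals mark the letters CTGATTGG (the Y box, an inverted CCAAT) in H2-Aa and H2-Eb1, its shorter form TGATTGG in H2-DMb1, and in H2-DMb1 an X box match joined to the letters TGATGATGC, which H2-Eb1 also holds.
H2-Aa, chr17:34287774-34288073, minus strand: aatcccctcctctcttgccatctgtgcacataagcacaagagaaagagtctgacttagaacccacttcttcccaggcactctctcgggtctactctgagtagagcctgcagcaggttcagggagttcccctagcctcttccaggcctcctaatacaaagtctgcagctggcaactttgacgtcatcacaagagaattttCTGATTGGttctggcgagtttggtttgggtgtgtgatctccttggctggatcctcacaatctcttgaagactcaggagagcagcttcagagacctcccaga
H2-Eb1, chr17:34305617-34305916, plus strand: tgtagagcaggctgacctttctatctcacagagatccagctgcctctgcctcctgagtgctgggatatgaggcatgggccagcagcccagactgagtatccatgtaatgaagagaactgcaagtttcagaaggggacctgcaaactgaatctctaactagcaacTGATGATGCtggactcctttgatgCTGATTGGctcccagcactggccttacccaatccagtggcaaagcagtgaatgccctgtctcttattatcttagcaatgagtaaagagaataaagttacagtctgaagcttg
H2-DMb1, chr17:34152941-34153240, plus strand: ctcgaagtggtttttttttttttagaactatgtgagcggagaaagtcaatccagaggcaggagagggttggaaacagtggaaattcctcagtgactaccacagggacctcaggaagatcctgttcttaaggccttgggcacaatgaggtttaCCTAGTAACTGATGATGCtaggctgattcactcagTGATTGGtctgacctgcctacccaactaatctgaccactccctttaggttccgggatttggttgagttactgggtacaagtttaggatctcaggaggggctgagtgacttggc

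Searched on both strands, CTGATTGG stood in 4.1% of all 32851 promoters of the table and in 2 of the 4 members found there, H2-Aa and H2-Eb1, where its first base lay 51 and 62 bases before the start. The X box consensus (CC, any base, AG, any 2 bases, AC, any base, GATG) stood in 0.0609% of promoters and in 1 of the 4 members, H2-DMb1, 98 bases before the start. The core CCAAT, contained in the Y box, stood in 37.4% of promoters and in 4 of the 4 members. Chosen after reading these promoters, TGATTGG stood in 7.82% of promoters and in H2-Aa, H2-Eb1 and H2-DMb1, and TGATGATGC in 0.253% and in H2-Eb1 and H2-DMb1. H2-DMa held CCAAT on the opposite strand 198 bases before the start and none of the other motifs. Of the other class II genes, H2-Oa, H2-Ob, H2-DMb2 and H2-Eb2 also held TGATTGG, in H2-Oa and H2-Eb2 as part of CTGATTGG, and their r with the class II mean was 0.01, -0.21, 0.03 and -0.28. A match describes letters and not a bound site.

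B cells carry class II constitutively, and 2 genes that define them were followed beside the members as a check on carry-over. Ms4a1, the B cell surface protein CD20, had 2.91, 4.90 and 8.75 CPM in bone, 0 CPM in all 3 muscle libraries, 0, 0.677 and 0.510 CPM in skin and 6.11, 1.34 and 5.90 CPM in heart, against 7.61 to 22.5 CPM in spleen with a median of 15.2. It was lower than spleen in all 4 tissues (adjusted p = 0.026, 1.7e-07, 7.5e-06 and 0.017 for bone, muscle, skin and heart, edgeR), and with a floor of 3 counts over the group it was at least 189-fold lower in muscle. The bone call was lost in 5 of 20 alternatives (adjusted p up to 0.12, edgeR among them), including those without bone replicate 1, bone library b, spleen replicate 4 or spleen replicate 5. The heart call was lost in 1 of 22 (Endo libraries only, where heart is replicate 1 alone). Cd79a, a signalling subunit of the B cell receptor, had 8.23, 4.14 and 6.09 CPM in bone, 0.0841, 0 and 0 CPM in muscle, 0, 1.13 and 0.637 CPM in skin and 5.46, 3.30 and 3.46 CPM in heart. Its spleen range was 2.65 to 9.23 CPM, and it was lower in muscle (adjusted p = 1.3e-05) and skin (adjusted p = 0.0047, edgeR). Bone and heart overlapped spleen in Cd79a.

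Class II RNA was thus present in muscle libraries that held 1, 0 and 0 counts of the 2 B cell genes together, beside 1765, 369 and 295 counts of H2-Aa. In skin the pair had 0 counts in replicate 1, and 16 and 9 counts in replicates 2 and 3 beside 1325 and 966 counts of H2-Aa. In spleen it had 62 to 491 counts. With the pair set to at least 3 counts per library, H2-Aa counts were 98.3 to 588 times the pair's in muscle and 82.8 to 175 times in skin, against 1.73 to 4.35 times in spleen. For Cd74 muscle gave ratios of 926 to 1514 and skin 256 to 1334, against 7.04 to 12.6 for spleen. Neither tissue overlapped spleen in any of the 4 genes compared, and the exact two-sided permutation test of the log2 ratio gave p = 0.024 for each, the smallest that 3 against 6 libraries allow (adjusted p = 0.032 over 16 tests). The 4 genes share the same B cell pair as denominator, and its low counts in muscle and skin largely set the separation. The 4 results per tissue are therefore not independent, and these tests did not adjust for naming style.

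In bone the ratio of class II to B cell counts was 2.09-fold higher than in spleen for H2-Aa, 2.00-fold for H2-Eb1 and 2.23-fold for Cd74 (exact permutation test, adjusted p = 0.032 each), and 2.09-fold for H2-Ab1, which overlapped spleen (adjusted p = 0.082). The style-adjusted log2 fold changes in bone were -0.27 for H2-Aa and -0.02 for Cd74, beside -1.71 for Ms4a1. Set against all 10 B cell markers, the bone ratios of H2-Aa, H2-Eb1 and Cd74 no longer passed. In heart Cd74 was 2.43-fold higher relative to the pair (adjusted p = 0.032), while H2-Aa, H2-Ab1 and H2-Eb1 overlapped spleen (adjusted p = 0.69, 0.082 and 0.33, exact permutation test). Without heart replicate 2 the log2 ratio differences were 1.47 for Cd74, 1.83 for H2-Aa, 2.06 for H2-Ab1 and 2.10 for H2-Eb1 (adjusted p = 0.071 each, exact permutation test). With the heart libraries then left, 0.071 is the smallest p this test can give, so it could not pass. Over the whole list of 10 B cell markers, bone had 1 that was lower, muscle 8, skin 8 and heart 3, and none was called higher in any tissue. The summed level of the list was 70.4 to 95.0 CPM in bone, 8.998 to 22.3 CPM in muscle, 13.01 to 17.3 CPM in skin, 21.4 to 59.2 CPM in heart and 46.3 to 137 CPM in spleen. Muscle replicate 1, with the most H2-Aa of its group, had the least B cell RNA of the 18 libraries.

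**Figure D3:**
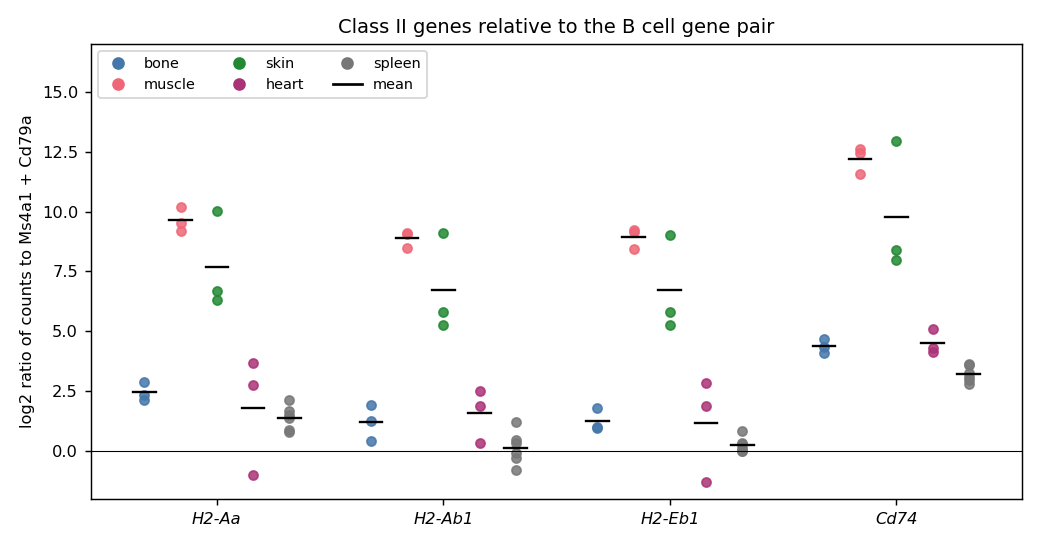
Log2 ratio of the counts of H2-Aa, H2-Ab1, H2-Eb1 and Cd74 to the summed counts of the B cell genes Ms4a1 and Cd79a, with 0.5 added to each term, for every library, with black lines for group means. Muscle and skin lie above spleen in all 4 genes, and the height of the muscle points and of skin replicate 1, where the pair had 0 or 1 counts, is set by the 0.5 added. Bone and heart lie near it, and the low heart point of H2-Aa (-1.01) and H2-Eb1 (-1.28) is replicate 2.

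Summed dendritic cell markers ordered the libraries of each injured tissue as H2-Aa did. The 7 markers summed to 42.5, 90.9 and 72.7 CPM in bone, 64.1, 52.4 and 39.4 CPM in muscle, 35.8, 63.6 and 57.4 CPM in skin and 41.0, 17.1 and 20.8 CPM in heart, against 4.30 to 99.8 CPM in spleen. The library highest in this sum was the library highest in H2-Aa in 5 of 5 groups, and the order of libraries was the same as that of H2-Aa in 4 of 4 groups of 3 libraries, also without Siglech, a marker of plasmacytoid dendritic cells. The summed B cell list gave 2 of 5 and 2 of 4, and the summed macrophage list 3 of 5 and 2 of 4. Taken singly, Flt3 and Itgax followed the order of H2-Aa in 3 of 4 such groups, Cd209a and Siglech in 2 of 4 and Zbtb46 in 0 of 4. In heart replicate 2, where H2-Aa was lowest, the dendritic genes Flt3, Cd209a and Siglech had 0 counts. There Zbtb46 had 167 counts, beside 214 and 95 in heart replicates 1 and 3, and Xcr1 had 35, beside 23 and 101. The comparison with marker sums was added after the values had been seen, and the part of dendritic cells in the class II level was not tested.

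Of the 7 dendritic cell markers, bone had 1 that was higher than in spleen, muscle 2, skin 3 and heart 2, and none was called lower. Zbtb46, a transcription factor of conventional dendritic cells, was higher in all 4 tissues, at 11.1 CPM in bone, 22.7 CPM in muscle, 26.1 CPM in skin and 13.6 CPM in heart, against 2.23 CPM in spleen (adjusted p = 0.0016, 2.6e-05, 2.4e-05 and 0.0017, edgeR). Xcr1, a chemokine receptor of cross-presenting dendritic cells, was higher in muscle (4.90 CPM) and heart (4.29 CPM) than in spleen (0.365 CPM), with adjusted p of 0.014 and 0.012. The Xcr1 call was lost in 1 of 21 alternatives in muscle (without muscle replicate 1) and in 3 of 22 in heart (within either naming style and without heart replicate 3), and the Zbtb46 call in heart in 1 of 22. Cd209a, a lectin of monocyte-derived dendritic cells, and Flt3 were higher in skin, at 9.12 and 7.26 CPM, against 1.86 and 3.07 CPM in spleen (adjusted p = 0.0073 and 0.037, edgeR). The Flt3 call was lost in 9 of 21 alternatives (log2 fold change down to 1.04, adjusted p up to 0.49), among them without skin replicate 2 or 3 and without spleen replicate 1 or 2, and the Cd209a call in 3 of 21 (adjusted p up to 0.46). Skin is also where Cd74 and H2-DMb1 were higher, but no member was called higher in muscle or heart, which had 2 dendritic markers higher each. A link between the marker calls and the class II calls was not tested. Cd207, the marker of Langerhans cells, had 0 counts in all 12 tissue libraries, skin included.

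No macrophage marker was called higher in any tissue. Of 9 tested, 0 were higher and 3, 4, 2 and 0 were lower in bone, muscle, skin and heart, and the list of 11 summed to 10.1 to 19.2 CPM in bone, 4.13 to 20.4 CPM in muscle, 3.97 to 18.8 CPM in skin, 5.43 to 71.6 CPM in heart and 22.0 to 43.8 CPM in spleen. Heart replicate 1, with the most H2-Aa of the heart libraries, held the 71.6 CPM. In heart 1 of the 9 had an unadjusted p under 0.05 in edgeR's test. Muscle replicate 1 (20.4 CPM) and skin replicate 2 (18.8 CPM) were likewise the highest of their groups in both. Of the other cell types listed, plasma cell genes had 1 lower in muscle and 1 in skin of 3 tested, neutrophil genes 2 lower in muscle and 2 in skin of 3 tested, and endothelial genes 1 lower in muscle, skin and heart of 2 tested. Fibroblast genes had 1 higher in bone and 1 in muscle of 3 tested, and keratinocyte genes were below the filter. Of 7 T cell and Treg genes, bone, muscle and skin had 3 higher and heart 2, and skin had 1 lower.

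**Figure D4:**
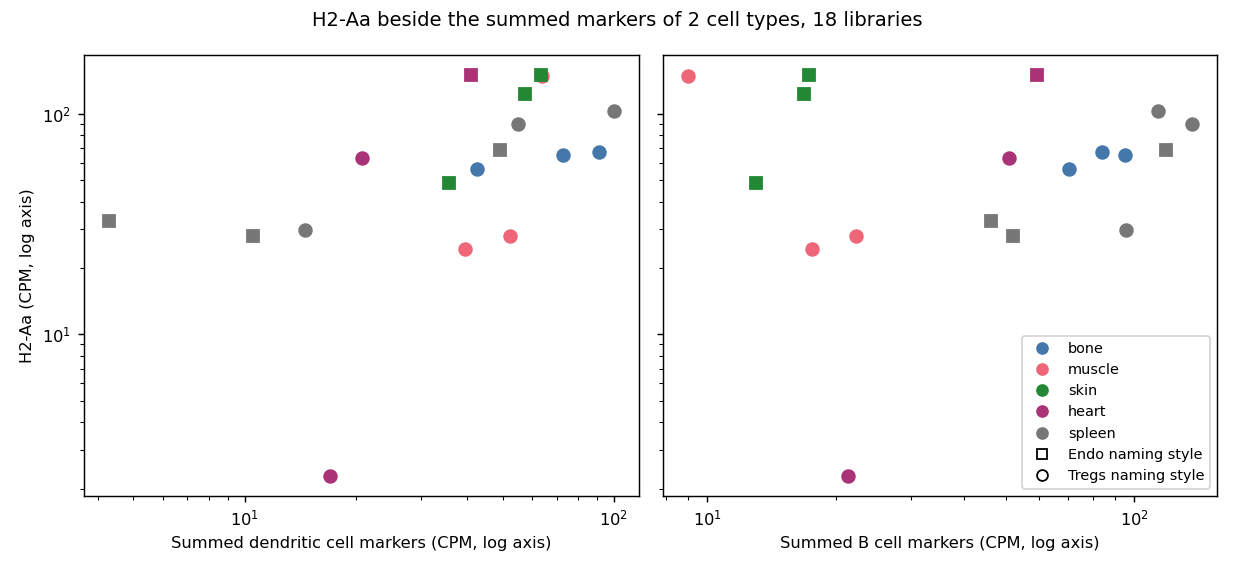
H2-Aa in each of the 18 libraries (vertical, CPM, log axis) beside the summed dendritic cell markers (left, 7 genes) and the summed B cell markers (right, 10 genes), both in CPM on log axes. Within each tissue of 3 libraries H2-Aa rises in step with the dendritic cell sum. At right, muscle replicate 1 (8.998 CPM of B cell markers) and skin lie far to the left of spleen (46.3 to 137 CPM) at similar or higher H2-Aa.

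Of the other genes of the class II pathway, 11 of 12 listed were in the tables, and 2 were higher and 1 lower in bone, 2 and 3 in muscle, 3 and 1 in skin, and 4 and 1 in heart. Their median log2 fold change was -0.46, -0.67, -0.15 and -0.41 in bone, muscle, skin and heart. H2-Ob, one chain of the DM inhibitor DO, was lower in muscle, skin and heart. It had 8.24, 7.99 and 10.4 CPM in muscle, 7.93, 10.0 and 12.5 CPM in skin and 17.3, 13.04 and 17.1 CPM in heart, against 29.5 to 39.8 CPM in spleen with a median of 35.4. None of the 3 tissues overlapped spleen, and the log2 fold change was -1.84 ± 0.22 in muscle (SE, adjusted p = 1.2e-06), -1.959 ± 0.22 in skin (4.4e-07) and -1.11 ± 0.17 in heart (0.00047, edgeR), each call holding in every alternative run. H2-Oa, its partner chain, was lower in bone, at 9.72, 5.97 and 7.97 CPM against 14.5 to 21.7 CPM in spleen (-1.02 ± 0.27, SE, adjusted p = 0.011, edgeR), a call lost without bone library b. H2-DMb2 was lower in muscle, with 0.0841, 0.0754 and 1.24 CPM against 3.31 to 15.5 CPM in spleen (-4.51 ± 0.79, SE, adjusted p = 0.00015, edgeR).

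Among the processing enzymes, Lgmn and Ifi30 were higher and Ctss was lower. Lgmn, a lysosomal endopeptidase that trims antigens and the invariant chain, was higher in all 4 tissues. It had 49.6, 46.0 and 28.4 CPM in bone, 27.8, 60.5 and 51.9 CPM in muscle, 169, 132 and 140 CPM in skin and 83.6, 79.0 and 96.96 CPM in heart, against 7.52 to 22.2 CPM in spleen with a median of 12.3. No tissue overlapped spleen, and the log2 fold change was 1.93 ± 0.31, 2.11 ± 0.31, 3.23 ± 0.32 and 2.81 ± 0.23 in bone, muscle, skin and heart (SE, adjusted p at most 0.00025, edgeR). Ifi30, a lysosomal thiol reductase that unfolds antigens, was higher in skin (44.9 ± 4.45 CPM) and heart (33.7 ± 5.22 CPM, SD, n = 3 each) than in spleen (17.98 ± 3.14 CPM, SD, n = 6), with adjusted p of 6.3e-06 and 0.0055 in edgeR's test, the heart call being lost without heart replicate 1. Ctss, the cysteine protease that cleaves the invariant chain last, was lower in muscle (-0.43 ± 0.14, SE, adjusted p = 0.029, edgeR) and did not pass elsewhere. That call was lost in 5 of 21 alternatives, among them without muscle replicate 2 or any one of spleen replicates 4 to 6.

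Cd83, a membrane protein that stabilises surface class II by opposing the ubiquitin ligase March1, was higher in all 4 tissues as well. It averaged 130 ± 11.7 CPM in bone, 223 ± 11.2 CPM in muscle, 354 ± 41.6 CPM in skin and 154 ± 8.56 CPM in heart (SD, n = 3 each), against 88.7 ± 13.7 CPM in spleen (SD, n = 6). The groups did not overlap spleen (adjusted p = 0.018, 5.3e-07, 8.1e-10 and 0.0017, edgeR), and the bone call was lost without bone library c, spleen replicate 4 or spleen replicate 6. March8, a related ubiquitin ligase, was higher in heart (2.77 CPM against 0.460 CPM in spleen, adjusted p = 0.0081, edgeR), a call lost in 3 of 22 alternatives, and March1 passed in no tissue. Lgmn, Ifi30 and Cd83 are also expressed outside antigen-presenting cells. Unlike H2-Aa, Cd83 spanned at most 1.24-fold between libraries of a tissue.

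**Figure D5:**
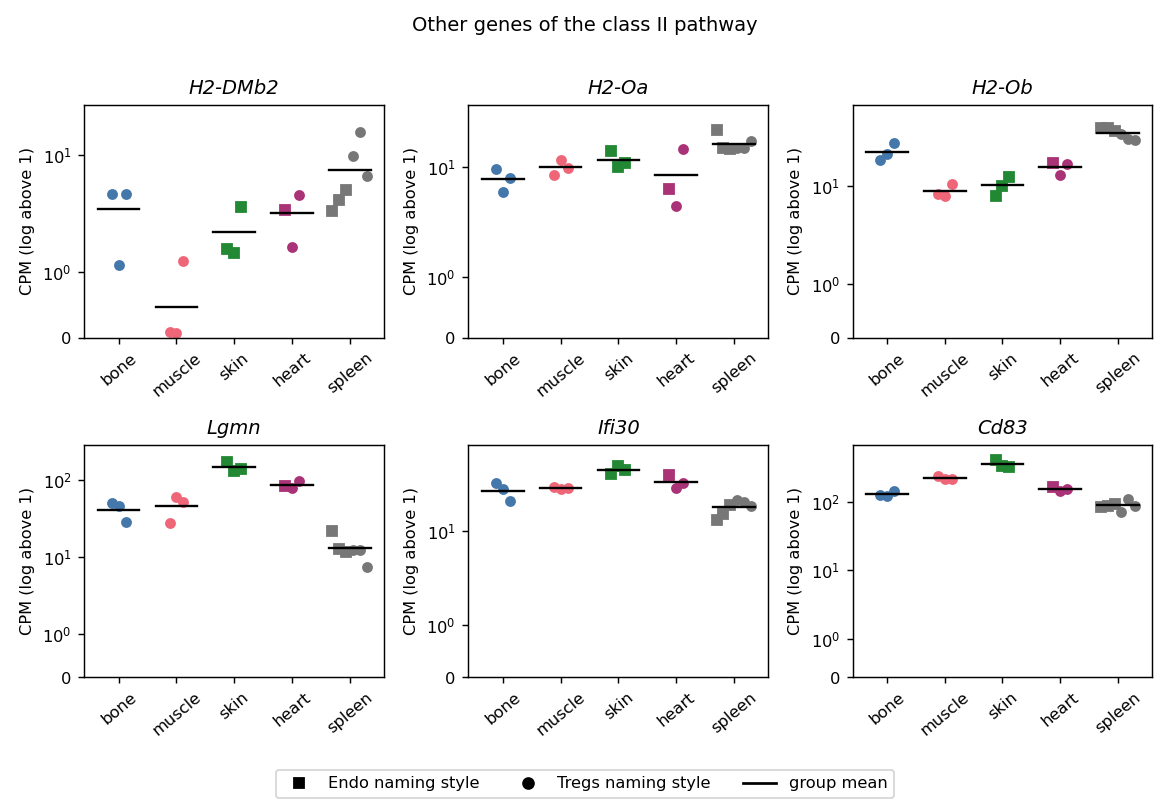
Level in every Treg library (TMM-scaled CPM, axis logarithmic above 1) of 6 other class II pathway genes, with injured tissues at left, spleen at right, symbols for the naming style and black lines for group means. H2-Ob in muscle, skin and heart lies below spleen (29.5 to 39.8 CPM), and Lgmn and Cd83 lie above spleen in every tissue library.

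The factors that recruit the Ciita product to class II promoters (Rfx5, Rfxap, Rfxank, Nfya, Nfyb, Nfyc and Creb1) did not pass edgeR's test in any tissue, and 2, 0, 2 and 3 of the 7 had an unadjusted p under 0.05 in bone, muscle, skin and heart, with median log2 fold changes of -0.16, -0.03, -0.13 and -0.22 in bone, muscle, skin and heart. Rfx5 averaged 32.1 CPM in bone, 38.3 CPM in muscle, 34.3 CPM in skin, 31.0 CPM in heart and 43.9 CPM in spleen. Of 9 genes upstream of Ciita, which include inhibitors, 4 were higher and 1 was lower in each of the 4 tissues. Of all genes tested, 8.48% to 15% were higher and 6.32% to 12.8% lower, depending on the tissue. Ifngr1, the ligand-binding chain of the interferon gamma receptor, was higher by 2.15 ± 0.13, 2.33 ± 0.13, 2.10 ± 0.13 and 2.49 ± 0.15 on the log2 scale in bone, muscle, skin and heart (SE, adjusted p at most 7.3e-08, edgeR). Prdm1, whose product Blimp-1 represses Ciita in plasma cells, was higher by 1.47 ± 0.17, 1.77 ± 0.18, 3.08 ± 0.19 and 1.49 ± 0.17 in the same order (adjusted p at most 3.1e-05, edgeR). Irf4 was higher in all 4 tissues, and Jak2 in muscle, skin and heart. In bone the other gene that was higher was Socs1, an inhibitor of the receptor's signalling, which was lower in muscle (adjusted p = 0.04 and 0.049 in bone and muscle, edgeR). Those Socs1 calls were lost in 8 of 20 and 8 of 21 alternatives. Ciita itself, downstream of these genes, passed in none.

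Of 10 genes of the class I pathway, 0 passed in bone and heart by edgeR (3 and 2 at an unadjusted p under 0.05), 3 were higher in muscle (H2-K1, H2-D1 and Tap1) and 2 lower in skin (Nlrc5 and Tap1), beside 14.2% of all genes higher in muscle and 12.8% lower in skin. In muscle the call was lost in 9 of 21 alternatives for H2-K1, 5 of 21 for H2-D1 and 3 of 21 for Tap1, and in skin in 7 of 21 for Tap1. Nlrc5, the class I counterpart of Ciita, had a log2 fold change of -1.15 ± 0.14 in skin (SE, adjusted p = 6.2e-07, edgeR), where it averaged 153 CPM against 340 CPM in spleen. Cd4 and Lag3, the T cell proteins that bind class II, passed in no tissue, and Cd4 averaged 607 CPM in bone, 688 CPM in muscle, 564 CPM in skin, 574 CPM in heart and 550 CPM in spleen.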

How the data were processed

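Raw counts per gene were deposited by the authors in 1 table of heart with spleen and another of the remaining tissues with the same spleen libraries. Per the submitters' processing notes, STAR, featureCounts and limma were used with GRCm38, with no versions. The strand setting, the annotation release and the handling of reads with several matches were not found in the labels or headers. Per the labels, 1 ng of RNA entered the Ovation Solo kit. The bone columns called b and c carry numbers in their names that no label ties to a bone replicate.

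After filterByExpr and TMM scaling, group effects were tested in edgeR 4.0.16 (R 4.3.3) by its quasi-likelihood F test with robust dispersions, with naming style as a covariate, at an FDR of 0.05. Bone, muscle and skin were tested in 15 libraries, heart in 9, and tissues against each other in all 18. Levels are CPM with TMM scaling over the 18 libraries, and standard errors were derived from the F statistic. Class II to B cell ratios were compared by exact permutation tests with 0.5 counts added and without naming style (scipy 1.17.1). The scripts were tested on simulated data. Where a count of 0 is compared, the floor is 3 counts, and floors cover counting error only. Replicates of a group differed by 10.9 to 157 times counting noise (chi-square per degree of freedom). The labels call them separate samples, and p-values measure the spread between them. Alternatives included DESeq2 1.42.0 and limma-voom (limma 3.58.1).

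The 7 members and the 15 gene lists were chosen with earlier results of these data known. Named genes were the members, Ms4a1 and Cd79a, up to 4 genes of each list with the largest changes past the threshold or bearing on a member, and the 10 genes most like the class II mean. March1 and March8 were matched by gene ID. 1 gene of the list upstream of Ciita is not reported here.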

Additional observations from a re-analysis of the deposited data

How the results depend on the processing

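The 7 genes were followed against spleen in 4 tissues under 35 alternative settings, 18 of them leaving out 1 library. Of 28 gene and tissue pairs, 13 stayed on the same side of the threshold under all alternatives run. In at least 1 alternative 6 lost a call, and 1 reversed with a call. Values short of the threshold could change sign, as for H2-Aa in bone (-0.63 to 0.17) and H2-DMb1 in muscle (-1.47 to 1.18). The 1 lower member became 0 with all 18 libraries fitted together in bone and muscle. In muscle it also became 0 with no filter or with spleen of the same style only. In skin it became 0 by limma-voom, with no filter and without spleen replicates 1 and 2, which had the most ribosomal RNA. Without these, spleen replicate 3 is the only spleen library of the skin style. In heart it became 0 without the style term, with RLE size factors, without ribosomal RNA genes and without those 2 spleen libraries. The count of higher members was added after the values had been seen. The 2 higher members in skin became 0 with all 18 libraries fitted together and without those 2 spleen libraries, 1 by limma-voom and without the style term, 4 with same-style spleen and 5 with no filter. With Endo libraries only, H2-DMb1 in heart reversed to 2.44, but heart was then replicate 1 alone, the heart library with the most H2-Aa and H2-DMb1. Leaving out 1 library moved the count of lower members between 0 and 1 in bone, muscle and skin and between 0 and 2 in heart, and the members called between 0 and 1 in heart against bone and in heart against skin. The cause of these changes was not tested.

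With the replicate block, 1 member was higher in muscle (Cd74, 0.88 ± 0.22, adjusted p = 0.0099, edgeR, SE), and Tap1 in muscle reversed to -0.018 (adjusted p = 0.94, edgeR). Same-numbered libraries gave correlations of -0.16 to 0.20, and 7 of 36 correlated best with their own number, so the numbers do not pair the libraries. For bone no replicate block was run, because the labels tie only 1 of the 3 columns to a numbered sample.

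Set against 10 B cell markers, the bone log2 ratio differences were 0.38 for H2-Aa, 0.31 for H2-Eb1 and 0.47 for Cd74 (adjusted p = 0.29, 0.22 and 0.11, exact permutation test). Leaving out 1 library gave 0.84 to 1.23 for H2-Aa, 0.72 to 1.15 for H2-Eb1 and 1.01 to 1.29 for Cd74 in bone, and 0.99 to 1.47 for Cd74 in heart. In muscle it gave 7.98 to 8.48 for H2-Aa, 8.56 to 8.96 for H2-Ab1, 8.53 to 8.93 for H2-Eb1 and 8.78 to 9.30 for Cd74, and in skin 5.11 to 6.97, 5.39 to 7.33, 5.28 to 7.16 and 4.96 to 7.47 for the same genes. The muscle values depend on the 0.5 counts added and are not measured sizes, since the B cell pair had 0 or 1 counts there, as in skin replicate 1. With 2 tissue libraries left, the exact test cannot pass, since 0.071 is the smallest p it can then give.

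Over all genes, 4342 passed in skin against spleen and 2548 without the 2 spleen libraries, and 3043 passed in heart against spleen. Without those 2 libraries, skin is in effect compared with spleen replicate 3 alone. Without the style term 2725 genes passed in skin against bone (1300 with it), 729 in skin against muscle (115) and 742 in heart against skin (379). DESeq2 called 947 in bone against muscle (284 higher and 209 lower by edgeR), 323 in skin against muscle, 1630 in heart against bone (1064), 211 in heart against muscle (72) and 672 in heart against skin, and limma-voom 69 in skin against muscle. Under upper-quartile scaling the median of all genes was -0.17 in skin and -0.12 in heart against spleen (-0.07 and -0.03 with TMM), and it gave 1506 higher and 1643 lower genes in heart against spleen (1772 and 1271 with TMM), 330 and 156 in bone against muscle and 566 and 740 in skin against bone (712 and 588). At 1 to 29 counts per library, as for Ciita and H2-Aa in heart replicate 2, counting error alone is large.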
